A study of Mus musculus with 6 samples.

Results

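The 9 brush-border hydrolases described here are Alpi, Sis, Mgam, Lct, Anpep, Dpep1, Mme, Treh and Enpep. They were chosen by their symbols among the 32285 genes of the count matrices, and each symbol had 1 row in each of the 6 matrices. Organoids are cultures of intestinal epithelium grown from isolated crypts, and these came from the duodenum of 10-week-old adult mice. All were collected on day 3 and measured by single-cell RNA-sequencing. WT organoids received DMSO without EIPA (WT -EIPA, 2 libraries) or 5 µM of EIPA (WT +EIPA, 2 libraries), an amiloride derivative. The CRISPR organoids carried an all-in-one lentiviral vector, TLCV2, with a guide RNA and a Dox-inducible Cas9 joined to EGFP, and were expanded from single puromycin-resistant clones. They were kept without doxycycline (CRISPR -Dox, 1 library) or with 2 µg/mL of it (CRISPR +Dox, 1 library), so both carried the vector. Sorted live cells were used for each library, and in CRISPR +Dox the cells were also gated on GFP. By the study's methods the WT replicates were separate preparations. Neither they nor the labels say whether these came from separate animals, so p-values measure the spread between the preparations.

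Absorptive enterocytes carry a brush border of microvilli, on which membrane-bound enzymes complete the digestion of sugars and peptides and remove phosphate groups. As cells leave the crypt and move up the villus these enzymes appear at different stages, and they serve as standard markers of enterocyte maturation. Among the members, Sis (sucrase-isomaltase), Mgam (maltase-glucoamylase), Lct (lactase, which digests milk sugar) and Treh (trehalase) cleave sugars. Anpep (aminopeptidase N), Enpep (aminopeptidase A), Mme (neprilysin) and Dpep1 (a dipeptidase) cleave peptides, and Alpi is the intestinal alkaline phosphatase.

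After limits on genes and mitochondrial counts, 12083 to 18211 cells per library remained, with median depths of 11478 to 17020 unique molecular identifiers (UMIs, which count molecules) per cell. Any pair of libraries shared 33 to 78 cell barcodes, at most 0.563% of the smaller one. Immune markers summed to at most 1.01 counts per 1000000 UMIs (CPM) in any library and stromal markers to at most 13.1 CPM.

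Cells were grouped by clustering without the 9 members and without 15 other brush-border hydrolases, so that neither list entered the clusters or their names. Mature enterocyte-like cells (clusters 5 and 21, led by Reg3a, Apoc3, Fabp1 and by Reg1, Reg3b, Rbp2) made up 5.26% and 3.21% of the cells of the WT -EIPA libraries, 7.76% and 7.69% of WT +EIPA, 7.03% of CRISPR -Dox and 13.8% of CRISPR +Dox. The list of early enterocyte markers, which holds Reg1 and Reg3b, gave no cluster a name. Its sum was 6759 CPM in cluster 3, 7109 in cluster 5 and 15367 in cluster 21, so it does not mark cluster 3 as earlier. Of the 20 leading genes of cluster 21, 3 are on that list. Cluster 3, led by Gstm3, Arg2 and Fabp1, is called less mature enterocyte-like by its mature markers alone. Their sum reached 35.5% of that in the highest cluster. Cluster 9 held 3066 cells with mature markers among its leading genes, a median of 14.2% mitochondrial UMIs and 4327 UMIs per cell, and was kept apart as mitochondria-rich enterocyte-like.

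Within mature enterocyte-like cells every member was detected in every library. The levels are CPM (a gene's UMIs per 1000000 UMIs summed in that class and library), and 3′ counts of this kind are not scaled to gene length. Sis stood at 2980 and 1667 CPM in WT -EIPA, 3233 and 2931 in WT +EIPA, 3811 in CRISPR -Dox and 6748 in CRISPR +Dox. Both CRISPR libraries were above all 4 WT libraries, among which the EIPA groups overlapped. Mgam stood at 534 and 285 CPM in WT -EIPA, 693 and 619 in WT +EIPA, 797 in CRISPR -Dox and 1303 in CRISPR +Dox. Lct was at 21.2 and 15.4 CPM in WT -EIPA, 34.1 and 53.0 in WT +EIPA, 38.1 in CRISPR -Dox and 136 in CRISPR +Dox. For both genes the CRISPR +Dox library was the highest of the 6, and the WT -EIPA libraries were the lowest. Treh was at 49.9 and 26.9 CPM in WT -EIPA, 54.6 and 46.1 in WT +EIPA, 20.4 in CRISPR -Dox and 36.0 in CRISPR +Dox.

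Anpep was low in both CRISPR libraries. Its level in mature cells was 104 and 82.3 CPM in WT -EIPA, 167 and 155 in WT +EIPA, 12.6 in CRISPR -Dox and 13.3 in CRISPR +Dox. Both CRISPR libraries were below all 4 WT libraries, and they also were in the less mature cells, at 6.33 and 9.66 CPM against 21.3 to 82.8. Line, clone and experiment cannot be told apart in this comparison. Dpep1 was at 89.4 and 60.2 CPM in WT -EIPA, 163 and 165 in WT +EIPA, 20.7 in CRISPR -Dox and 63.7 in CRISPR +Dox. Mme was at 146 and 122 CPM in WT -EIPA, 206 and 267 in WT +EIPA, 105 in CRISPR -Dox and 266 in CRISPR +Dox. Enpep was at 151 and 143 CPM in WT -EIPA, 188 and 238 in WT +EIPA, 122 in CRISPR -Dox and 170 in CRISPR +Dox. In these 3 peptidases the lowest library was CRISPR -Dox. The phosphatase Alpi had a narrow range, at 115 and 121 CPM in WT -EIPA, 143 and 172 in WT +EIPA, 108 in CRISPR -Dox and 120 in CRISPR +Dox.

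Each member was higher in mature than in less mature enterocyte-like cells in 6 of 6 libraries. The size of the step separated the members. Alpi was 1.45-fold higher (median over the libraries, range 1.23 to 1.83), Enpep 1.55-fold (1.34 to 2.07), Anpep 2.08-fold (1.38 to 3.86) and Mgam 2.20-fold (1.84 to 2.48). Treh was 2.68-fold higher (2.18 to 3.16) and Sis 3.10-fold (1.91 to 4.36). Mme (4.41-fold, 2.98 to 6.70), Dpep1 (4.78-fold, 3.32 to 7.65) and Lct (14.2-fold, 3.46 to 39.6) had the steepest steps. The classes come from clusters of the same cells, so these folds are a description without a test, and neighbours in this order overlap in their ranges over the libraries.

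Outside the enterocyte-like and revival-like classes all 9 members were lower. In ISC-like cells (intestinal stem cells, cluster 2), in proliferating, Goblet-like, Paneth-like, enteroendocrine (EEC-like) and tuft-like cells each member was below its level in mature cells in all 6 libraries. The median fold of mature over ISC-like cells was 113 for Sis, 108 for Dpep1, 71.9 for Lct and 62.5 for Mme, and 42.8 for Alpi. Dpep1 had 2 UMIs in the ISC-like cells of CRISPR -Dox, and its fold in that library was taken against 3 UMIs. Mgam stood apart, at 96.7 to 168 CPM in ISC-like cells and 74.9 to 167 CPM in tuft-like cells, and the median fold of mature over ISC-like cells was 4.67.

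Shares of cells with a UMI showed the same order after each cell was thinned to 2000 UMIs. Sis was seen in 85.5% to 100% of mature cells, 46.6% to 97.7% of less mature cells, and 2.47% to 17.6% of ISC-like cells. In tuft-like cells, taken as the background since they are not absorptive, the share for Sis was 7.94% to 37.5%. The ISC-like share is therefore not read as expression, and its source was not tested. The median depths before thinning were 12288 to 16962 UMIs in mature cells and 5171 to 7896 in tuft-like cells, and without thinning Sis was seen in 99.3% to 100% and in 16.5% to 64.3% of them. Mgam was seen in 42.2% to 87.1% of thinned mature cells, 18.5% to 27.2% of ISC-like cells and 9.81% to 28.2% of tuft-like cells. For Lct the thinned shares were 3.08% to 23.4% in mature cells and 0% to 1.79% in tuft-like cells. EEC-like cells held Sis in 45.1% to 79.6% of thinned cells, above the tuft-like share in each library. The Sis level in EEC-like cells was 376 to 1265 CPM and was spread over their clusters, at 200 to 1032 CPM in cluster 12, 634 to 2721 CPM in cluster 17 (led by the hormone genes Gip and Cck) and 383 to 2171 CPM in cluster 18.

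Single mature cells carried several hydrolases at once. Without thinning, their mean number of detected members was 4.81 to 7.20 of 9 over the libraries, and 3.39 to 5.44 in less mature cells. ISC-like cells had 0.835 to 1.86, tuft-like cells 0.630 to 1.86. After thinning to 2000 UMIs the means were 2.37 to 3.37 in mature, 1.09 to 2.38 in less mature, 0.252 to 0.477 in ISC-like and 0.228 to 0.643 in tuft-like cells. With thinning, 0% to 5.47% of mature cells had none of the members, against 59.6% to 76.0% of ISC-like cells.

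**Figure D1:**
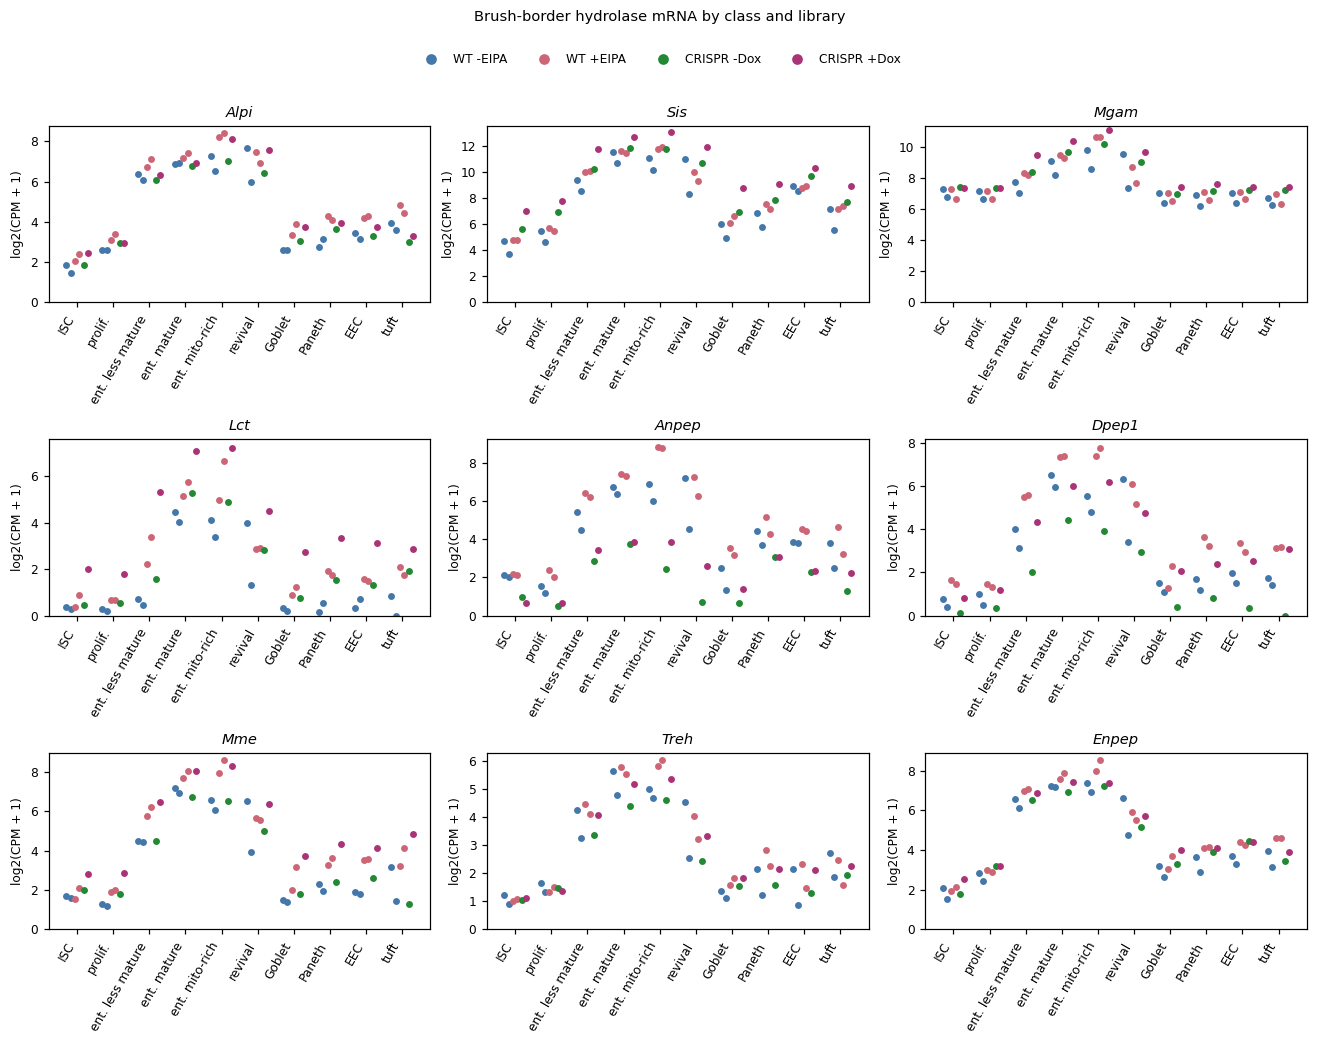
Level of each of the 9 members as log2(CPM + 1) in each cell class, with 1 point per library coloured by group. In every panel the mature enterocyte-like cells lie above the stem, secretory and tuft-like classes of the same library, with a small gap for Mgam. The 2 CRISPR libraries of Anpep in mature cells lie below the 4 WT libraries.

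The mitochondria-rich and revival-like classes were the exceptions to this order. In mitochondria-rich enterocyte-like cells Mgam reached 378 to 2193 CPM and Alpi 90.9 to 343 CPM, and Anpep in WT +EIPA was at 445 and 434 CPM, above the 167 and 155 CPM of the mature cells. In revival-like cells (cluster 13, with the injury-response genes Clu, Anxa1 and Ly6a among its leading genes) Alpi was at 202 and 61.8 CPM in WT -EIPA, 175 and 119 in WT +EIPA, 85.5 in CRISPR -Dox and 189 in CRISPR +Dox. This class held 94 cells in WT -EIPA replicate 1 and 290 in replicate 2, and its summed mature markers were 36717 and 6485 CPM.

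To place the members on a common scale, the cells of all libraries together were also ranked by the share of UMIs from the 20 mature markers and cut into 20 equal bins, which does not use the clusters. A library held 76 to 2291 cells in bin 1 and 211 to 1286 in bin 20. Alpi reached 50% of its bin 20 level in bin 17 in all 6 libraries and Enpep in bin 17 or 18. Mgam reached it in bin 18, Sis and Anpep in bin 18 or 19, Dpep1 and Treh in bin 19, and Lct and Mme in bin 19 or 20. In bin 15 the level of Alpi was already 22.3% to 31.4% of that in bin 20, and that of Lct 1.72% to 3.84%. The early rise of Alpi and the late rise of Lct thus held in each library. Anpep reached 50% in bin 18 and Sis in bin 19 in 5 of 6 libraries, and the other way round in CRISPR +Dox, where Anpep was at 13.9 CPM in bin 20.

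**Figure D2:**
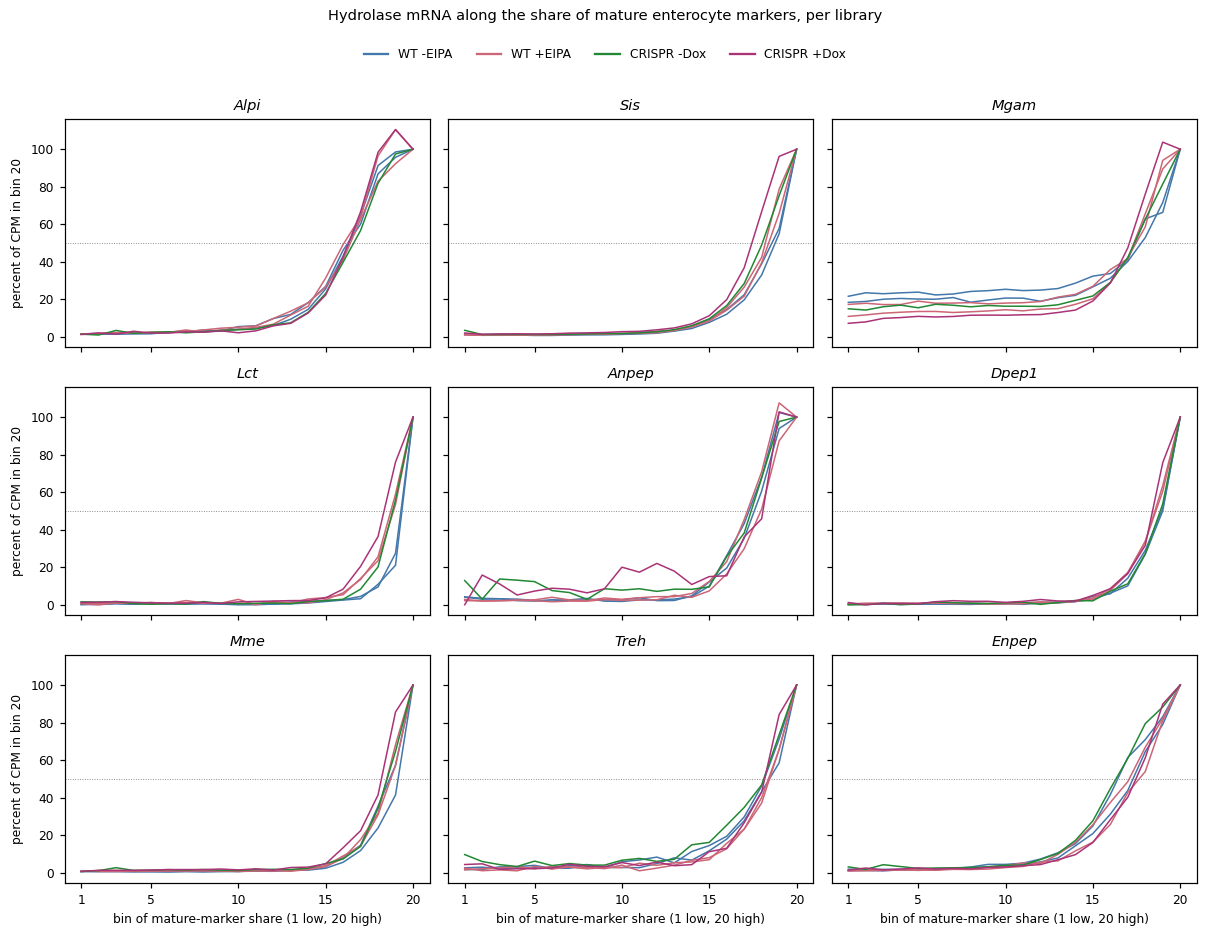
Level of each member (CPM as a percentage of bin 20) in 20 equal bins of the cells of all libraries ranked by their share of mature enterocyte markers, 1 line per library coloured by group, with a dotted line at 50%. Alpi crosses 50% in bin 17 and Lct in bin 19 or 20, and Mgam stays at 11.5% to 25.4% in bin 10.

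For each member the genes of most similar pattern were named. Over the 60 sums per class and library, Pearson's r of log2(CPM + 1) among 7772 genes was highest with Ces2c for Alpi (0.98), with H2-Q2 for Sis (0.96), Fam8a1 for Mgam (0.97), Cyp3a11 for Lct (0.95), Sowaha for Anpep (0.92), Apoa1 for Dpep1 (0.97), Cyp3a11 for Mme (0.98), Dgat1 for Treh (0.97) and Ces2a for Enpep (0.98). Cyp3a11 and Apoa1 are among the mature markers that named the clusters. The next genes in likeness were Mep1b and Slc51a for Alpi, Cyp2d26 for Sis, Cyp4v3 for Mgam, and Slc2a2 and Asah2 for Lct. They were Ggt1 and Acaa1b for Anpep, Gda and Ggt1 for Dpep1, Mttp and Nat8 for Treh, and Dgat1 and Cyp2c66 for Enpep. Ces2c and Ces2a are carboxylesterases, Slc2a2 and Slc51a transport glucose and bile acids, and Dgat1 and Mttp serve the making of triglyceride particles. Between members r ran from 0.50 (Anpep with Mgam) to 0.96 (Alpi with Enpep). The sums share libraries and depth, so these values carry no p.

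The members lie on mouse chromosomes 1, 3, 6, 7, 8 and 9 in build GRCm38. Sis spans chr3:72888557-72967863 on the minus strand, Lct chr1:128284756-128328318 on the minus strand, Alpi chr1:87098002-87101606 on the minus strand and Mgam chr6:40628831-40769123 on the plus strand. Anpep spans chr7:79821803-79861059 on the minus strand, Dpep1 chr8:123186242-123201812 on the plus strand, Mme chr3:63241537-63386030 on the plus strand, Treh chr9:44673233-44686305 on the plus strand and Enpep chr3:129269175-129332720 on the minus strand. Dpep1 overlaps Gm20388 and Anpep overlaps Gm44974 on the same strand, and Enpep overlaps Gm42628 on the opposite strand. These 3 genes have no row in the matrices. Treh overlaps Phldb1 on the opposite strand, which has one.

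Promoter windows of RefSeq (250 bases before to 50 after a start site, GRCm38.p6) were found for 9 of 9 members, with 3 windows for Mme. The bases before the start site are printed for 3 of the sugar-cleaving genes, Sis, Lct and Mgam, and for Alpi, so that the members of earliest (Alpi) and late (Lct) rise stand beside the pair of highest level in mature cells (Sis and Mgam). Factors of the HNF1, HNF4, CDX and GATA families are known to act on hydrolase promoters. The sequences run 5′ to 3′ on the gene's strand, and capitals mark matches on either strand to AGATAA as the motif of the GATA family, GTTAAT as a half-site of HNF1, TTTTAT as the motif of the CDX family, CAAAGT as a half-site of HNF4 and TATAAA as the TATA motif. The windows are chr3:72967864-72968113 for Sis, chr1:128328319-128328568 for Lct, chr6:40628581-40628830 for Mgam and chr1:87101607-87101856 for Alpi.
Sis: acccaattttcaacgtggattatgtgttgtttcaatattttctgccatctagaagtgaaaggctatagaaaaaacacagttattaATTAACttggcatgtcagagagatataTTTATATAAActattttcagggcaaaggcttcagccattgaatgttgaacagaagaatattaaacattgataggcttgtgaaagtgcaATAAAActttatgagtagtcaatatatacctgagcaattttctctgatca
Lct: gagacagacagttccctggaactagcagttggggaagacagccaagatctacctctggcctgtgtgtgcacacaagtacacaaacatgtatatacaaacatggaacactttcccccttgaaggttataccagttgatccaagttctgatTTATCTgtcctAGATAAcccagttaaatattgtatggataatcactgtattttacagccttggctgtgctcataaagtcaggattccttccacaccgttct
Mgam: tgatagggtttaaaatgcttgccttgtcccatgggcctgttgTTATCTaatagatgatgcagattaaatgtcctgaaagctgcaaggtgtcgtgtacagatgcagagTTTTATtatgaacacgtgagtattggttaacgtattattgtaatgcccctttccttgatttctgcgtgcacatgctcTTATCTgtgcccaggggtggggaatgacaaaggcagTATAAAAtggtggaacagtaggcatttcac
Alpi: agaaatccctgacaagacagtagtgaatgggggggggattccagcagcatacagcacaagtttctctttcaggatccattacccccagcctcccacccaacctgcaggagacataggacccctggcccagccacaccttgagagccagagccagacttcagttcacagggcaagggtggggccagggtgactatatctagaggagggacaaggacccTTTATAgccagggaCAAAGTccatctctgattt
In the Sis window the HNF1 half-site lies at bases -165 to -160 from the start site and the CDX type match at -50 to -45. The Lct window holds the GATA type letters at -101 to -96 and at -90 to -85. The Mgam window holds them at -208 to -203 and at -66 to -61, with CDX type matches at -143 to -138 and at -29 to -24, the last of which overlaps a TATA type match. In the Alpi window the HNF4 half-site lies at -19 to -14 and the TATA type match at -33 to -28.

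Across all members, the HNF4 half-site was in a window of 4 (Alpi, Dpep1, Mme, Treh), the TATA type in 4 (Alpi, Enpep, Mgam, Sis), the CDX type in 3 (Enpep, Mgam, Sis), the GATA type in 2 (Lct, Mgam) and the HNF1 half-site in 1 (Sis). Among 32851 windows of the same length these letters were in 14.4%, 13.6%, 18.5%, 11.2% and 7.10%, so single matches are common and are a description only. The TTTTAT and TATAAA matches overlap in Mgam and Enpep. The Anpep window held none of the 5 motifs and had a GC content of 72.3%. It is chr7:79848161-79848460, which lies inside the span of the gene given above and not at its 5′ end, as do the windows of Mme. Whether these windows hold the start sites used in these cells was not tested.

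The first comparison asked how EIPA changed the hydrolases over all cells. All 9 had a higher mean level with EIPA, and none passed the test. Dpep1 went from 8.85 and 4.10 CPM in WT -EIPA to 26.6 and 25.3 in WT +EIPA, Lct from 1.85 and 0.965 to 4.80 and 7.75, and Anpep from 16.7 and 8.98 to 44.5 and 35.0. Alpi went from 24.7 and 17.9 CPM to 44.96 and 49.6. Between libraries of the same replicate number all 9 members were higher with EIPA in both numbers. The share of all genes higher in both numbers was not computed, so this count is a description only. In 8 of 9 members both WT +EIPA libraries were above both WT -EIPA libraries, where 13.5% of all genes were, and Mgam was the exception (192 and 114 against 252 and 187 CPM). The log2 fold change was 2.26 ± 0.42 (SE) for Lct, 2.09 ± 0.37 for Dpep1, 1.74 ± 0.25 for Mme, 1.71 ± 0.32 for Anpep and 1.24 ± 0.18 for Alpi. In edgeR's quasi-likelihood test, adjusted over 15890 genes, 0 of 9 members were called higher (0% of all genes were), with 7 of 9 at an unadjusted p under 0.05, as were 10.1% of all genes. DESeq2 called 6 of 9 (3.47% of all genes were called higher by it), and edgeR with no filter on low counts called 6 (0.801%). A fit with the replicate number as a block, which leaves 1 residual degree of freedom, called 7 (4.47%), with adjusted p of 0.0192 for Anpep and 0.0290 for Alpi. The sum over all cells rises both with the number of enterocytes and with the RNA of each, and these cannot be told apart in it. The share of mature cells and the summed mature markers (8979 and 5075 CPM against 15617 and 13870 CPM) moved with the members.

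Within mature enterocyte-like cells all 9 log2 fold changes were positive, and none passed the test. The largest were those of Lct (21.2 and 15.4 to 34.1 and 53.0 CPM, log2 fold change 1.38 ± 0.26) and Dpep1 (89.4 and 60.2 to 163 and 165 CPM, log2 fold change 1.25 ± 0.21). Mme (0.95 ± 0.19), Anpep (0.91 ± 0.16) and Mgam (0.80 ± 0.29) followed, then Enpep (0.66 ± 0.17), Alpi (0.54 ± 0.15), Sis (0.53 ± 0.29) and Treh (0.51 ± 0.28). Between libraries of the same number 9 of 9 were higher with EIPA in both, a description only, since the share of all genes was not computed. In 7 of 9 members the libraries of the groups did not overlap, where 13.6% of all genes were higher without overlap, and Sis and Treh overlapped. No member was lower without overlap, where 37.7% of all genes were. Scaled by library size alone, as CPM is, the median log2 fold change over all genes was -0.14 in mature and in less mature cells, against -0.01 and -0.03 with the TMM scaling of the test. The quasi-likelihood test of edgeR called 0 of 9 higher (0% of 10988 genes were called higher and 1 gene lower), and the smallest adjusted p was 0.135, for Dpep1. At an unadjusted p under 0.05 there were 7 of 9 members and 14.5% of all genes. DESeq2 called 5 (2.45% of all genes higher), edgeR with no filter 7 (2.41%) and the fit with the replicate block 8 (3.74%). With the block the adjusted p in edgeR was 9.69e-05 for Dpep1 and 0.000740 for Lct. The mature markers that named the class also moved within it, from 83091 and 63562 CPM in WT -EIPA to 95421 and 87465 CPM in WT +EIPA, and the part of this shift in the members' levels was not tested.

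In less mature enterocyte-like cells Mme passed the test. Its level was 21.8 and 20.6 CPM in WT -EIPA and 53.4 and 73.1 CPM in WT +EIPA, a log2 fold change of 1.69 ± 0.19 (edgeR quasi-likelihood, Benjamini-Hochberg adjusted p = 0.0355). Dpep1 (15.2 and 7.87 to 44.5 and 46.6 CPM, 2.10 ± 0.29, adjusted p = 0.0509) lay just outside the threshold in edgeR. Lct had the largest fold change, from 0.651 and 0.389 CPM to 3.67 and 9.44 CPM (3.79 ± 0.58, adjusted p = 0.0723 in edgeR). It rests on 11 and 8 UMIs in WT -EIPA against 70 and 198 in WT +EIPA. Lct thus passed the filter on low counts through the WT +EIPA libraries, where it is high. Over the alternatives its log2 fold change ran from 2.67 to 4.32. The other 6 had positive log2 fold changes of 0.60 to 1.40. Called higher was 1 of 9 members, where 0.296% of 11825 genes were, and 8 of 9 were at an unadjusted p under 0.05, as were 11.4% of all genes. DESeq2 called 8 (2.24% of all genes higher), edgeR with no filter 8 (2.65%) and the fit with the replicate block 9 (6.92%). The libraries did not overlap in 8 of 9 members, where 12% of all genes were higher without overlap and 37.6% lower, and Treh overlapped. The call of Mme was lost without WT -EIPA replicate 2, without WT +EIPA replicate 2 and in classes built without batch correction, with 0 of 9 called in each case, and 8 were called without WT -EIPA replicate 1. Where a replicate is left out, the lone library is assumed to vary like the other group. The summed mature markers in this class were 21334 and 13190 CPM in WT -EIPA and 34719 and 36079 CPM in WT +EIPA.

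**Figure D3:**
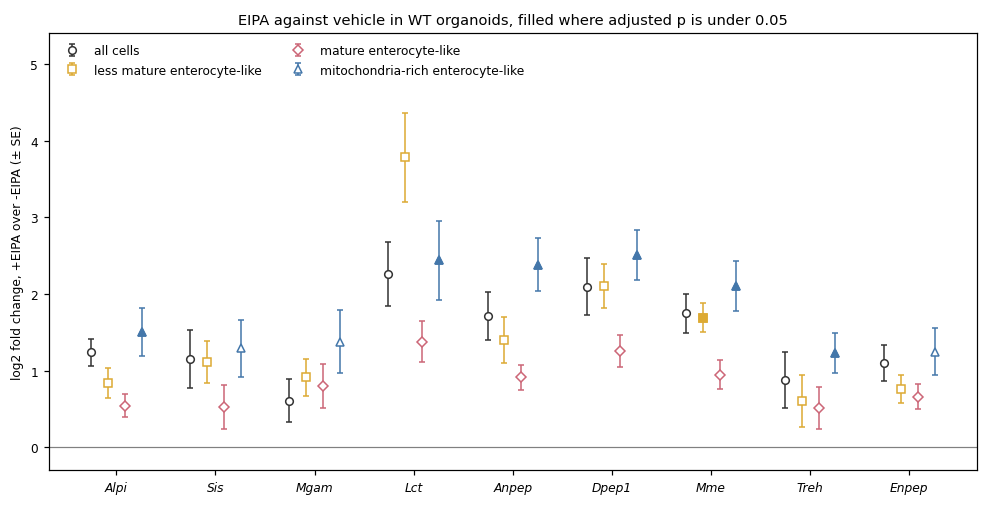
Log2 fold change of each member, WT +EIPA over WT -EIPA (edgeR, n = 2 libraries a group), in all cells and in less mature, mature and mitochondria-rich enterocyte-like cells, with bars of 1 SE and filled symbols where the adjusted p is under 0.05. All values lie above 0, and Lct, Dpep1 and Mme are further from 0 in less mature cells (3.79, 2.10 and 1.69) than in mature cells (1.38, 1.25 and 0.95).

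A test of the difference between the classes asked whether the EIPA fold changes were the same in mature and less mature cells. They were smaller in mature cells for Lct (difference of log2 fold changes -2.39 ± 0.36, edgeR adjusted p = 0.00142), Dpep1 (-0.86 ± 0.11, 0.000470), Mme (-0.74 ± 0.09, 0.000217), Sis (-0.59 ± 0.08, 0.00111) and Anpep (-0.53 ± 0.13, 0.0459). For Alpi (-0.30 ± 0.10), Enpep (-0.12 ± 0.11), Treh (-0.09 ± 0.12) and Mgam (-0.09 ± 0.08) the difference did not pass. Called lower were 5 of 9 members, where 2.71% of 12060 genes were. The difference for Lct rests on 11 and 8 UMIs in the less mature cells of WT -EIPA. Treh and Enpep changed sign in 1 alternative each. In this model the library is the block, so mature and less mature cells are compared within each library. The EIPA groups are still 2 libraries each. Few residual degrees of freedom remain, so the small p-values of this test rest on a spread shared across genes. The ratio of the summed mature markers between the EIPA groups also differed between the classes, as their levels above show, and its part in the difference was not tested.

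Within bins of equal mature-marker share, chosen after the data were seen, the levels of the EIPA groups could be set beside each other at a like degree of maturation. In bin 19, where the median share of mature markers was 5.73% to 5.96% in each library, Dpep1 was at 62.8 and 53.9 CPM in WT -EIPA and 109 and 119 in WT +EIPA. Lct in that bin was at 9.98 and 8.68 CPM against 18.8 and 36.0. Over bins 17 to 20 the ratio of the group means was 1.59 to 2.25 for Dpep1, 1.65 to 1.76 for Anpep, 1.24 to 1.60 for Mme, 1.29 to 1.34 for Alpi and 1.26 to 1.65 for Mgam. It was 1.24 to 4.47 for Lct and 1.0996 to 1.27 for Enpep, while for Sis (0.979 to 1.26) and Treh (0.896 to 1.14) the ratio lay on both sides of 1. The libraries of the EIPA groups did not overlap in any of these bins for Alpi, Anpep and Dpep1. They overlapped in all of them for Treh, in bins 17, 18 and 20 for Sis, in bins 17 and 20 for Mgam, in bin 18 for Mme and in bin 17 for Enpep. In bin 20 the Lct libraries overlapped, at 36.4 and 41.2 CPM in WT -EIPA and 35.2 and 61.1 in WT +EIPA. The share of all genes without overlap was not computed in these bins. The ratios and overlaps are therefore a description of the members without a test.

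In the remaining classes 9 of 68 pairs of class and member were called, all higher with EIPA. In mitochondria-rich enterocyte-like cells 6 of 9 members rose, where 2.35% of 9790 genes did. They were Dpep1 (46.0 and 27.1 to 165 and 217 CPM, log2 fold change 2.504 ± 0.32, edgeR adjusted p = 0.0100), Anpep (118 and 63.5 to 445 and 434 CPM, 2.38 ± 0.35, 0.0154), Mme (2.10 ± 0.33, 0.0189), Treh (1.23 ± 0.26, 0.0359), Alpi (1.503 ± 0.32, 0.0361) and Lct (2.44 ± 0.51, 0.0361). At an unadjusted p under 0.05 were 9 of 9 members and 19.9% of all genes. DESeq2 called 8 of 9 here (3.13% of all genes higher), the fit with the replicate block 9 (6.36%) and edgeR with no filter 0 (0%). Calls were lost when a library was left out, save for WT +EIPA replicate 1. Over 12 alternatives, those without a library among them, the log2 fold changes of all 9 members stayed positive. They ran from 2.10 to 3.03 for Dpep1 and from 0.828 to 1.95 for Sis. The summed mature markers of this class were 23752 and 11078 CPM in WT -EIPA and 40059 and 45533 CPM in WT +EIPA.

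Low levels of hydrolases in secretory cells also differed with EIPA in single cases. In Paneth-like cells Dpep1 rose from 2.20 and 1.25 CPM to 11.3 and 8.26 CPM (log2 fold change 2.68 ± 0.28, edgeR adjusted p = 0.0237) and Alpi from 5.68 and 7.88 CPM to 18.8 and 16.3 CPM (1.40 ± 0.18, 0.0358). That is 2 of 9 members, where 0.226% of 11957 genes rose. In EEC-like cells Mme rose from 2.69 and 2.53 CPM to 10.5 and 10.9 CPM (2.08 ± 0.27, 0.0324), 1 of 9 members, where 0.073% of 12325 genes rose. Tuft-like cells, taken above as the background, moved alike without passing the test. In them Dpep1 went from 2.40 and 1.68 CPM to 7.79 and 8.07 CPM (2.10 ± 0.52), Alpi from 14.4 and 11.1 CPM to 27.3 and 20.6 CPM (1.02 ± 0.29) and Mme from 8.01 and 1.68 CPM to 8.43 and 16.5 CPM (1.85 ± 0.59). With EIPA, Dpep1 in Paneth-like cells lay above the tuft-like levels, Alpi in Paneth-like cells below them and Mme in EEC-like cells between them. Whether these calls reflect background was not tested, and they are not read as expression in those cells. With called doublets removed these 3 calls were lost. The call of Alpi in Paneth-like cells was also lost without batch correction, and that of Mme in EEC-like cells with no filter, under strict cell limits and without either WT -EIPA library. At an unadjusted p under 0.05 were 8 of 9 members in Paneth-like cells (4.17% of all genes) and 6 of 9 in EEC-like cells (2.93%). Both counts hold Lct, which had under 3 UMIs in 1 of 6 libraries in each of these classes. Lct may have passed the filter on low counts through the WT +EIPA libraries, where it is high, so it is not read as support. The counts of the other tools in these classes can hold it too. In Paneth-like cells DESeq2 called 4 members (0.535% of all genes higher), edgeR with no filter 8 (1.17%) and the replicate block 8 (2.51%). In EEC-like cells they called 1 (0.235%), 0 (0%) and 5 (1.31%). The summed mature markers of Paneth-like cells were 2694 and 2112 CPM in WT -EIPA and 5218 and 4511 CPM in WT +EIPA, and those of EEC-like cells 2509 and 2094 CPM and 4527 and 4157 CPM. In edgeR 0 members were called in ISC-like, proliferating, revival-like and Goblet-like cells, where 0% of all genes were called higher, and in tuft-like cells, where 0.041% were. At an unadjusted p under 0.05 were 2 of 8 members tested in ISC-like cells (3.68% of all genes), 5 of 9 in proliferating (4.76%), 0 of 9 in revival-like (1.04%), 4 of 8 in Goblet-like (7.37%) and 5 of 7 in tuft-like cells (3.71%). DESeq2 called 3 in proliferating cells (0.487% of all genes higher) and 0 in ISC-like (0.0929%), revival-like (0.0189%), Goblet-like (0.468%) and tuft-like cells (0.0614%). With no filter edgeR called 2 in ISC-like (0.326%), 3 in proliferating (0.338%), 0 in revival-like (0.18%), 4 in Goblet-like (1.51%) and 4 in tuft-like cells (0.403%). The replicate block called 3 in ISC-like (3.74%), 7 in proliferating (4.15%), 0 in revival-like (0.275%), 5 in Goblet-like (4.26%) and 0 in tuft-like cells (0.481%). Lct was not tested in ISC-like, Goblet-like and tuft-like cells, and Treh not in tuft-like cells, since their counts were under the filter.

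The other brush-border hydrolases, a list of 15 genes, were described beside the members. In mature cells 11 were tested, all with a log2 fold change above 0 (median 0.78), and 0 were called by edgeR, with 8 at an unadjusted p under 0.05 (14.5% of all genes were), where the median over all genes was -0.01. Enpp3 lay near the floor in mature cells, with 75 UMIs over the 6 libraries (0 to 2.79 CPM). Both WT +EIPA libraries were above both WT -EIPA libraries for it. The counts of this list can thus hold Enpp3 through the WT +EIPA libraries alone. In less mature cells 12 were tested, 11 were above 0 (median 0.92), and 0 were called, with 7 at an unadjusted p under 0.05 (11.4%). In mature cells DESeq2 called 5 of 9 tested (2.45% of all genes higher), edgeR with no filter 8 of 14 (2.41%) and the fit with the replicate block 8 of 11 (3.74%). In less mature cells they called 5 of 12 (2.24%), 8 of 14 (2.65%) and 9 of 12 (6.92%). In mitochondria-rich cells 8 of 11 rose, where 2.35% of all genes did, among them Enpp7, Enpp3, Ggt1, Ace, Asah2, Mep1b and Dpp4, and edgeR with no filter called 0% of all genes higher in this class. Enpp3 is not read as support there, since its counts in that class are not given here. For the difference between mature and less mature cells 5 of 13 were lower in mature cells, where 2.71% of all genes were, among them Ggt1 (-1.15 ± 0.13), Enpp7 (-1.96 ± 0.47), Asah2 (-0.67 ± 0.11) and Mep1b (-0.46 ± 0.11). Mep1b, a meprin, stood at 120 to 309 CPM in mature cells, and Ggt1, a gamma-glutamyltransferase, was at 99.8 to 242 CPM in WT and at 36.2 and 54.2 CPM in the CRISPR libraries.

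Of the 10 transcription factors listed as known to act on hydrolase genes, 0 were called by edgeR in mature and in less mature cells, with 2 and 1 at an unadjusted p under 0.05 (14.5% and 11.4% of all genes were), and the median log2 fold changes were 0.10 and 0.01. DESeq2 called 0 of the 6 it tested in mature cells (2.45% of all genes higher) and 0 of 10 in less mature cells (2.24%). With no filter edgeR called 0 of 10 in each (2.41% and 2.65%). The replicate block called 0 of 10 in mature and 1 of 10 in less mature cells, lower with EIPA. It called 3.74% and 6.92% of all genes higher in these classes. Its share of all genes called lower is not given here, so the 1 factor is not read as a result about the list. In mature cells Hnf4g, a nuclear receptor of enterocytes, was at 222 and 238 CPM in WT -EIPA and 230 and 297 CPM in WT +EIPA, with the groups overlapping. In less mature cells it was at 169 and 166 CPM against 172 and 214 CPM, without overlap. Of the 10 factors 2 were higher and 3 lower without overlap in mature cells, and 1 higher and 4 lower in less mature cells. Among all genes 13.6% were higher and 37.7% lower in mature cells, and 12% and 37.6% in less mature cells. The counts of factors lie near these shares. Cdx1 and Gata4 were lower without overlap in both classes, as 37.7% and 37.6% of all genes were. Cdx1 went from 58.1 and 73.2 CPM to 44.4 and 44.9 CPM in mature cells. Cdx2 was at 97.5 to 118 CPM, Gata6 at 94.3 to 115 CPM and Hnf4a at 65.9 to 81.9 CPM over the 6 libraries.

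The second comparison set CRISPR +Dox beside CRISPR -Dox, with 1 library each and no test. Intervals are exact 95% intervals for counting error only, and Dox, the GFP gate and the library cannot be told apart. In mature enterocyte-like cells Lct was 3.56-fold higher with Dox (3.27 to 3.87), Dpep1 3.08-fold (2.74 to 3.46), Mme 2.54-fold (2.41 to 2.67), Sis 1.77-fold (1.75 to 1.79), Treh 1.76-fold (1.56 to 2.00) and Mgam 1.64-fold (1.60 to 1.67). Enpep was 1.39-fold (1.32 to 1.47) and Alpi 1.11-fold higher (1.05 to 1.18), and for Anpep the interval held 1 (1.06, 0.892 to 1.26). At least 2-fold higher were 3 of 9 members, where 2.15% of 11311 genes were. In less mature cells Lct was 19.5-fold higher (15.0 to 25.9, from 58 to 1098 UMIs), Dpep1 6.18-fold, Mme 4.21-fold, Sis 2.90-fold and Mgam 2.12-fold. Those 5 of 9 were at least 2-fold higher, where 3.69% of 11785 genes were, and Treh (1.70), Anpep (1.53), Enpep (1.28) and Alpi (1.20) were not. Without batch correction Mgam fell under 2-fold there (1.64), and the ratio of Lct was 8.86, against 53.3 with doublets removed. The summed mature markers were 71044 and 83554 CPM in mature cells and 22032 and 45734 CPM in less mature cells without and with Dox. Their part in these ratios was not tested.

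At a like share of mature markers, in bins 17 to 20, the ratio of CRISPR +Dox to CRISPR -Dox was 2.42 to 5.97 for Lct, 2.20 to 3.31 for Dpep1, 1.73 to 2.77 for Mme, 1.37 to 1.87 for Sis and 1.28 to 1.62 for Mgam. For Anpep (0.736 to 1.14) and Enpep (0.822 to 1.27) it lay on both sides of 1. In secretory and stem classes the levels were low. Sis in ISC-like cells was at 48.8 CPM in CRISPR -Dox and 133 CPM in CRISPR +Dox (2.72-fold, 2.52 to 2.93), and in tuft-like cells, the background, at 211 and 494 CPM (2.34-fold, 1.93 to 2.84). Mgam in ISC-like cells was at 168 and 160 CPM (0.958, 0.911 to 1.01). In EEC-like cells Sis was at 864 and 1265 CPM (1.46-fold, 1.40 to 1.53).

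**Figure D4:**
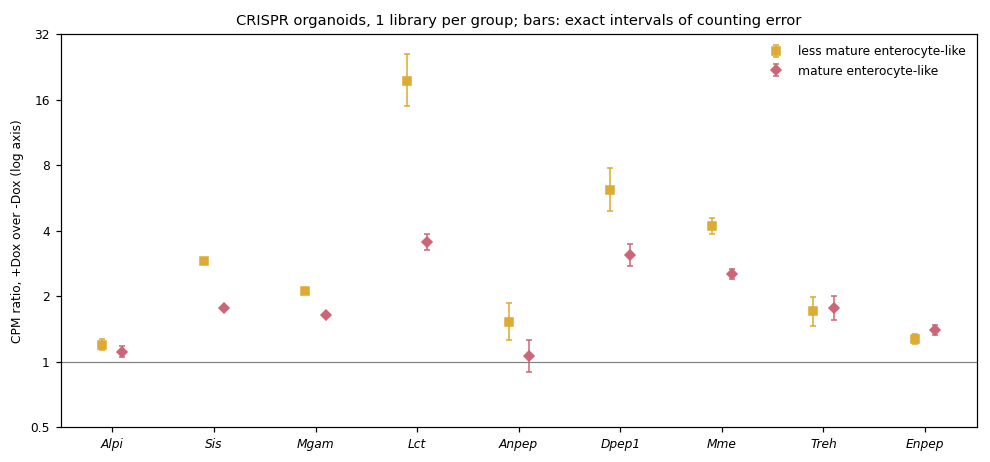
Ratio of CRISPR +Dox to CRISPR -Dox for each member in mature and less mature enterocyte-like cells (1 library each, log axis), with exact 95% intervals for counting error. Every point lies above 1, Lct is the highest in both classes (3.56 and 19.5), and Anpep in mature cells has an interval that holds 1.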

How the data were processed

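The deposited values are raw UMI counts per gene and cell barcode, made by the authors with Cell Ranger 6.1.2 on mm10/GRCm38 from 10x 3′ libraries. The submitters' notes list both names of the build. Quality limits of the authors are not given in the sources used here. The limits set here were 1000 genes or more and less than 20% of UMIs from mitochondrial genes, which 87954 cells passed. The members and lists were chosen with earlier results of these data known.

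Cells were clustered in Python 3.11.15 with scanpy 1.11.5 and leidenalg 0.10.2 (3000 variable genes, 45 principal components, 20 neighbours, resolution 0.8) after a Harmony correction for library written in numpy 2.4.6, which gave 22 clusters, and the 9 members and 15 other hydrolases were held out. Names required 2 or more markers of 1 type among the 20 leading genes of a cluster and 3 or more of them above the remaining cells, a rule set after the clusters were seen. Clusters 1, 4, 10, 11, 15 and 19 stayed unnamed. Scrublet called doublets at 1 common threshold, since its automatic one called 0 cells in 1 library. It called 10.1% to 12.3% of cells, which stayed in except where doublets are said to be removed.

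For each library the counts of a class were added up, and WT +EIPA was compared with WT -EIPA in R 4.3.3 with edgeR 4.0.16 (TMM, filterByExpr, quasi-likelihood F test, two-sided, Benjamini-Hochberg over all genes tested, threshold 0.05). DESeq2 1.42.0 was an alternative. With 2 libraries a group an exact permutation test of a single value cannot go below p = 0.333. The reported fit had no block for the replicate number. The study's source data pair libraries of the same number as experiments 1 and 2, and their deviations from the group means correlated at 0.69 over all cells, 0.39 in mature and 0.50 in less mature cells. Because of the correlation over all genes, the block is given beside the results it changes.

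On simulated counts with 200 changed genes edgeR recovered 56% of 2-fold and 91% of 4-fold changes in mature cells (10988 genes, 24 false calls) and 54% and 71% over all cells (15890 genes, 25 false calls). Among these simulated calls the false share was above what the adjusted p threshold is meant to allow. For the difference between classes edgeR recovered 89.5% of 4-fold changes (12060 genes, 5 false calls). The spread given to the simulated counts is not stated here, so these figures do not vouch for the calls reported above. Folds between classes with under 3 UMIs were taken against 3 UMIs. Named are the 9 members, the listed genes past the threshold with up to 6 of highest level, and the 3 genes most like each member among those of mean CPM 10 or more. Some genes that this rule names are not reported here, among them the targeted gene. UMI totals per library were 176388405 to 249350351, and intervals cover counting error only.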

Additional observations from a re-analysis of the deposited data

Results flagged for a closer look

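Results drew a closer look where the EIPA effect differed between mature and less mature enterocyte-like cells in the test of the difference itself (edgeR, class by EIPA term, library as a block). The difference of the log2 fold changes, mature minus less mature, was -2.39 for Lct, -0.86 for Dpep1, -0.74 for Mme, -0.59 for Sis and -0.53 for Anpep. Lct in less mature cells rests on the lowest counts, at 0.651 and 0.389 CPM (11 and 8 UMIs) without EIPA. Over the alternatives the difference for Lct ran from -2.74 to -1.36.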

How the results depend on the processing

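Of 549 alternative values of the members' EIPA log2 fold changes, 411 kept their direction and side of the threshold, 96 passed it newly, 40 no longer passed and 2 changed sign. Those were the differences between mature and less mature cells for Treh without batch correction (0.0161) and for Enpep when a replicate was left out (-0.319 to 0.0486, the latter without WT -EIPA replicate 2), and the cause was not tested.

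Counts of called members depended on the tool. Over all cells, with 0 reported, DESeq2 gave 6, no filter 6, the replicate block 7 and leaving out a replicate 0 to 6. In mature cells, with 0 reported, DESeq2 gave 5, no filter 7, the block 8 and leaving out a replicate 0 to 1. In less mature cells, with 1 reported, library size only gave 2, DESeq2 8, no filter 8, the block 9, doublets removed 2, strict cell limits 2, no batch correction 0 and leaving out a replicate 0 to 8. Over the other classes, with 9 of 68 pairs reported, DESeq2 gave 16, no filter 21, the block 37, doublets removed 5 and leaving out a replicate 2 to 16. With the block 1 residual degree of freedom remains, so its small p-values rest on a spread shared across genes. The difference between the classes gave 4 to 7 of 9 under every alternative run, and the counts of members by class level were the same in each. Members at least 2-fold higher with Dox were 3 in mature cells under each alternative, and in less mature cells 5, or 4 without batch correction. Of 54 alternative values of the members' Dox ratios, 22 lay outside the counting interval of the reported ratio.

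Counts over all genes moved likewise. Over all cells they went from 0 to 587 (DESeq2), 198 (no filter), 839 (block) and 137 without WT -EIPA replicate 1. In mature cells they went from 1 to 173, 709 and 695 in the same order, and 28 without WT +EIPA replicate 1. In less mature cells they went from 42 to 309, 607 and 1130, to 93 with doublets removed, 0 without batch correction and 355 without WT -EIPA replicate 1.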

Other observations

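Barcodes left out by the limits on cells also held counts of the members. Summed per library, Sis in them was at 378 to 6544 CPM, Mgam at 229 to 1814 CPM, Alpi at 35.3 to 170.0 CPM and Lct at 6.31 to 123 CPM. In each gene the ranges over the 6 libraries overlap those of the less mature cells.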
